A study of Mus musculus with 12 samples.

Results

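The LIF-JAK-STAT3 axis was followed through 9 genes in mouse embryonic stem (mES) cells whose BRG1 protein was degraded to graded levels. The genes were chosen by name for their place in the pathway, and not by their values: the receptor genes Lifr and Il6st, the kinase genes Jak1 and Jak2, the transcription factor gene Stat3, its feedback inhibitor Socs3, and the target genes Gbx2, Pim1 and Pim3. All 9 of the 9 were found once among the 24421 genes of the count table, and all 9 passed the filter on low values, a mean level of 1 RPKM or more (counts divided by exon length and by the scaled size of the library) over the libraries, which left 11378 genes for testing.

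LIF is the cytokine that keeps mouse ES cells self-renewing in culture. It binds the receptor LIFR, which joins with the shared subunit gp130, the product of Il6st, and the receptor-bound kinases of the JAK family then phosphorylate STAT3. Phosphorylated STAT3 enters the nucleus and activates target genes, among them Socs3, whose product binds the receptor and the JAK kinases and shuts the signal down, and genes such as Gbx2, Pim1 and Pim3 that favour self-renewal. BRG1, encoded by Smarca4, is the ATPase of the mSWI/SNF chromatin remodelers and opens chromatin at many enhancers of ES cells.

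The cells were C57BL/6J ES cells from blastocysts with a degron knocked into Brg1, so that the small molecule dTAG13 sends the tagged protein to the proteasome, and they came from colonies grown from single cells. Total RNA was sequenced after 24 h in fresh medium with 0.3, 1, 3, 10 or 100 nM dTAG13, or in the control without it (0 nM), with 2 libraries for each of the 6 conditions and 12 in all. Every condition, the control included, carried the degron and was grown in serum medium with LIF and the MEK and GSK3 inhibitors PD0325901 and CHIR99021, so the ligand was supplied throughout. The libraries measure transcripts and not the phosphorylation of STAT3, and in bulk libraries fewer cells of a type and less RNA per cell cannot be told apart.

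Total counts ran from 4663484 to 6375582 per library. The libraries of each condition correlated with r of 0.982 to 0.986 across tested genes, and the spread beyond counting error, as a biological coefficient of variation, was 6.20%. The labels give the libraries of a condition as replicates and say nothing of separate cultures, so p-values measure only the spread between these libraries, which may be technical. The paper describes the expression data as coming from independent experiments. By the sample numbers in the labels, 0, 1, 10 and 100 nM belong to 1 run of numbers and 0.3 and 3 nM to another. Comparisons of 0.3 and 3 nM with the control therefore cross those runs. The Smarca4 transcript stood at 63.5 to 71.3 RPKM in the 12 libraries, which does not measure the protein that dTAG13 removes. Of the ES cell markers Pou5f1, Nanog, Sox2, Zfp42, Esrrb and Dppa5a, 6 of 6 were detected in every library.

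At 100 nM, Lifr, Il6st, Gbx2 and Pim1 rose and Pim3 fell, while Jak1, Jak2, Stat3 and Socs3 did not pass the test. The changes were small: the largest was that of Il6st, a log2 fold change of 0.58, and none of the 9 reached the study's definition of a differentially expressed gene (DEG), which asks for a change of more than 1.5-fold as well. The receptor genes and Pim1 changed by 0.46 to 0.58 on the log2 scale, while the kinase genes differed by 0.11 and 0.19. These calls were made with the quasi-likelihood test of edgeR, with p-values adjusted by Benjamini-Hochberg over all 11378 genes and a threshold of 0.05. All dose comparisons with 0 nM share the same control libraries.

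**Figure D1:**
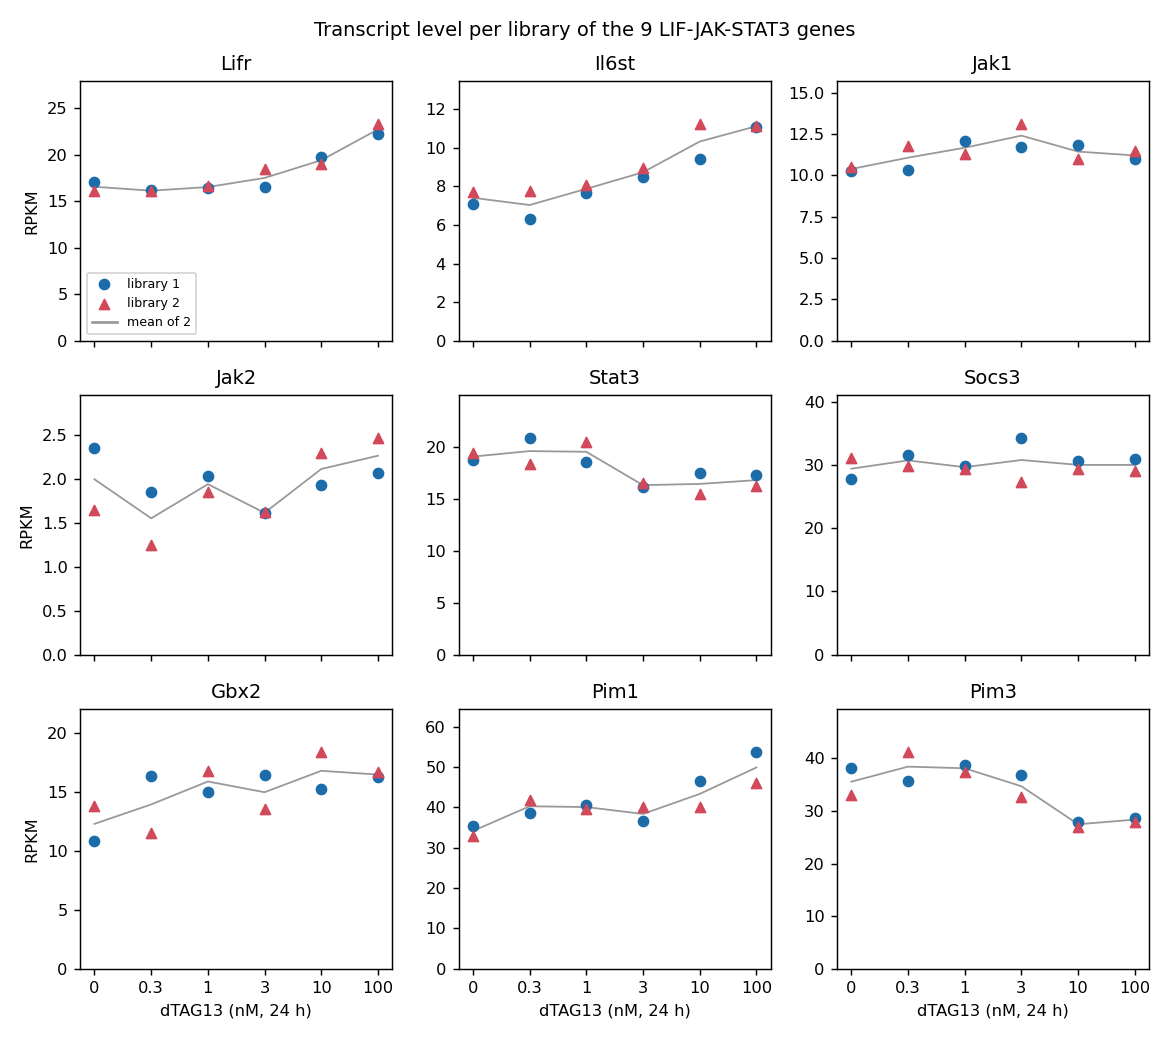
Transcript level in RPKM (vertical axes, each from 0) of the 9 genes in each library against the dTAG13 concentration (horizontal axis, equal steps per dose), with circles for library 1, triangles for library 2 and a line through the mean of 2. Lifr, Il6st and Pim1 lie highest at 100 nM, Pim3 lies lowest at 10 and 100 nM, and Socs3 keeps to 27.4 to 34.2 RPKM.

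The count of genes past the test was 0 of 9 at 0.3 nM, 0 of 9 at 1 nM and 0 of 9 at 3 nM, where 0.0703%, 2.29% and 9.4% of all genes tested passed. At an unadjusted p under 0.05 these doses had 1, 2 and 2 of the 9, against 7.55%, 13.5% and 21.8% of all genes tested. The likelihood ratio test and DESeq2's Wald test also called 0 of the 9 at each of these doses. At 10 nM, 4 of the 9 were higher and 1 lower, and 17.9% of all genes passed (7.87% higher and 10.1% lower). At 100 nM the counts were again 4 and 1, with 23.4% of all genes past the test (10.1% higher and 13.3% lower). The median log2 fold change of the 9 was 0.14 at 10 nM and 0.19 at 100 nM, and that of all genes tested was 0.00 at both doses. DEGs numbered 0 of the 9 at all 5 doses in edgeR's quasi-likelihood test, where 0.0176%, 0.914%, 3.9%, 7.93% and 11.2% of all genes were DEGs from the lowest dose to the highest. DESeq2 called 1 of the 9, Il6st, a DEG at 100 nM. Of all DEGs at 100 nM 39.0% were higher, and 28.6% were with TMM (trimmed mean of M values) normalization factors taken over all genes with a count.

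Counted by libraries instead of a test, 5 of the 9 had both 100 nM libraries above both control libraries (Lifr, Il6st, Jak1, Gbx2 and Pim1), 2 had both below (Stat3 and Pim3), and Jak2 and Socs3 overlapped. Over all genes tested, 61.7% had groups that did not overlap at 100 nM (30.5% above and 31.2% below). At 10 nM, 5 of the 9 were above and 2 below, with 54.8% of all genes not overlapping. The counts were 3 above and 2 below under 3 nM (49.7% of all genes), 3 and 0 under 1 nM (44.8%), and 1 and 0 under 0.3 nM (38.2%).

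Of the receptor genes, Lifr encodes the LIF-binding subunit and lies on mm10 chromosome 15 from 7129572 to 7197489 on the plus strand. It stood at 17.03 and 16.1 RPKM in the control libraries. Under dTAG13 the 2 libraries of each dose read 16.2 and 16.1 (0.3 nM), 16.5 and 16.6 (1 nM), 16.6 and 18.5 (3 nM), 19.8 and 19.0 (10 nM) and finally 22.2 and 23.3 (100 nM). Its level was flat up to 1 nM, and both libraries of 10 nM and of 100 nM lay above every control library. Against the control, Lifr was higher by a log2 fold change of 0.23 at 10 nM (standard error, SE, 0.068, adjusted p = 0.0184) and 0.46 at 100 nM (SE 0.067, 95% interval 0.32 to 0.60, adjusted p = 1.02e-05). In RPKM the mean went from 16.6 ± 0.676 to 22.7 ± 0.775 (SD, n = 2 each), which is 137% of the control. The 10 nM call was lost without control library 2 (0.18, adjusted p = 0.201) or without 10 nM library 1 (0.20, adjusted p = 0.101). It was also lost without the filter on low values (adjusted p = 0.0920) and with TMM factors over all genes with a count (adjusted p = 0.0568), settings that share the same TMM factors.

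Il6st, which encodes gp130, the signalling subunit that LIFR shares with the receptors of IL-6 and related cytokines, lies on chromosome 13 from 112464070 to 112506860 on the plus strand. Its levels in RPKM were 7.09 and 7.73 in the control. Under dTAG13 its libraries read 6.31 and 7.76 (0.3 nM), 7.65 and 8.09 (1 nM), 8.49 and 8.97 (3 nM), 9.43 and 11.2 (10 nM) and finally 11.1 and 11.2 (100 nM). From 3 nM on, both libraries of each dose lay above both control libraries, although the 3 nM change of 0.24 did not pass (adjusted p = 0.233). Against the control, Il6st was higher on the log2 scale by 0.48 at 10 nM (SE 0.112, adjusted p = 0.00344) and 0.58 at 100 nM (SE 0.111, 95% interval 0.36 to 0.81, adjusted p = 0.000264). The mean rose from 7.41 ± 0.455 to 11.1 ± 0.0493 RPKM (SD, n = 2 each), 150.1% of the control. On the log2 scale the change of 0.5847 sat just under the DEG minimum of 0.5850, and 5 of 10 alternative settings and 4 of 12 fits with a library left out put it above. The 10 nM call was lost without control library 1 (0.41, adjusted p = 0.0596) or without 10 nM library 2 (0.35, adjusted p = 0.0803).

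The kinase genes did not pass the test at any dose. Jak1 encodes the kinase on which gp130 signalling chiefly relies, and lies on chromosome 4 from 101151974 to 101265282 on the minus strand. It stood at 10.2 and 10.5 RPKM in the control. The treated libraries held 10.4 and 11.8 (0.3 nM), 12.1 and 11.3 (1 nM), 11.7 and 13.1 (3 nM), 11.9 and 11.02 (10 nM) and finally 10.97 and 11.4 (100 nM). All 8 libraries of 1 nM and above exceeded both control libraries, a split picked after the values were seen whose share over all genes was not counted. The highest mean was at 3 nM, 12.4 ± 0.968 RPKM (SD, n = 2). On the log2 scale Jak1 differed from the control by 0.26 at 3 nM (SE 0.098, adjusted p = 0.105) and 0.11 at 100 nM (95% interval -0.09 to 0.31, adjusted p = 0.462). Jak1 shares 397 bases of exon with Raver2 on the opposite strand. The pairs were counted without strand, so pairs of the 2 genes in these bases were not told apart, and the effect on its count was not tested.

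Jak2, on chromosome 19 from 29251803 to 29313080 on the plus strand, encodes a second kinase that can act at gp130, and had the lowest level of the 9. It had 36 to 76 counts per library and stood at 2.34 and 1.64 RPKM in the control. With dTAG13 it read 1.85 and 1.25 (0.3 nM), 2.03 and 1.84 (1 nM), 1.61 and 1.62 (3 nM), 1.93 and 2.29 (10 nM) and finally 2.06 and 2.46 (100 nM). The control libraries lay far apart for so low a gene, and the 100 nM libraries overlapped them. The log2 fold change at 100 nM was 0.19 with a 95% interval of -0.28 to 0.65 (adjusted p = 0.607). That interval includes 0 as well as changes of the size seen in the receptor genes.

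Stat3, the gene of the transcription factor that carries the signal to the nucleus, lies on chromosome 11 from 100886810 to 100939511 on the minus strand. It stood at 18.7 and 19.4 RPKM in the control, 20.8 and 18.3 under 0.3 nM dTAG13 and 18.5 and 20.5 under 1 nM. Lower values followed, with 16.1 and 16.5 RPKM under 3 nM, 17.4 and 15.4 under 10 nM and 17.3 and 16.2 under 100 nM. All 6 libraries of 3 nM and above lay below all 6 of the lower doses and the control. This split was picked after the values were seen, and the share of all genes so separated was not counted. On the log2 scale Stat3 differed from the control by -0.22 at 3 nM (adjusted p = 0.142), -0.21 at 10 nM (adjusted p = 0.112) and -0.18 at 100 nM (SE 0.090, 95% interval -0.37 to 0.0032, adjusted p = 0.152), so no single dose passed. One slope over the ranks of the 6 doses did pass, at -0.05 log2 per dose step (adjusted p = 0.0152), and 29.3% of all genes passed that trend test. Within the 8 libraries of 0, 1, 10 and 100 nM the trend of Stat3 did not pass (adjusted p = 0.0715), nor did it without normalization factors (adjusted p = 0.0624). The 100 nM change passed with TMM factors taken over all genes with a count (-0.26, adjusted p = 0.0313) and without the filter on low values (-0.26, adjusted p = 0.0416). These settings share the same TMM factors and are not separate checks of the normalization.

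Socs3, the feedback inhibitor that STAT3 itself activates, lies on chromosome 11 from 117966087 to 117969366 on the minus strand and had the smallest change at 100 nM of the 9. It stood at 27.7 and 31.1 RPKM in the control. Treated libraries had 31.5 and 29.9 (0.3 nM), 29.9 and 29.4 (1 nM), 34.2 and 27.4 (3 nM), 30.7 and 29.4 (10 nM) and finally 31.0 and 29.0 (100 nM). At every dose its libraries overlapped the control libraries. Its change at 100 nM was 0.03 on the log2 scale with a 95% interval of -0.17 to 0.22 (adjusted p = 0.876), and the slope per dose step was 0.00 (95% interval -0.03 to 0.04, adjusted p = 0.926). That interval leaves room for changes of Socs3 up to the size given, but not for a change as large as those measured for Lifr, Il6st and Pim1.

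STAT3 binds the palindrome TTCNNNGAA, where N is any base. Promoters of all 9 genes were present in RefSeq's annotation of GRCm38.p6, the assembly of mm10, as windows from 250 bases before to 50 bases after each start site, and Lifr and Pim1 had more than 1. Searched on both strands, which are equivalent for a palindrome, the motif was present in 1 of the 9, Socs3, against 9.55% of the 27025 genes with a promoter. The stricter form TTCCNGGAA, which is contained in the first, was present in 0 of the 9 and in 1.35% of all genes. The Socs3 match is shown because it is the only one among the 9, and it was picked after the levels were known. It lies at chr11:117969502-117969530 on the minus strand, with its first motif base 154 bases before the start site and the motif in capitals.
Socs3: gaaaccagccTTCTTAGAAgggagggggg
A match of letters is a description of the sequence and not a measured site of binding, and the windows hold no distal enhancers.

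Among the other targets, Gbx2 encodes a homeobox transcription factor that can sustain ES cell self-renewal, and lies on chromosome 1 from 89927962 to 89931176 on the minus strand. It stood at 10.8 and 13.8 RPKM in the control. In treated cells it read 16.3 and 11.6 (0.3 nM), 15.04 and 16.8 (1 nM), 16.4 and 13.6 (3 nM), 15.2 and 18.4 (10 nM) and finally 16.3 and 16.7 (100 nM). Both libraries of 1, 10 and 100 nM lay above both control libraries, while 0.3 and 3 nM each had 1 library below control library 2. Gbx2 was higher on the log2 scale by 0.45 at 10 nM (SE 0.153, adjusted p = 0.0440) and 0.42 at 100 nM (SE 0.153, 95% interval 0.10 to 0.73, adjusted p = 0.0484). Control library 1 had the lowest value of the 12, and without it the changes were 0.28 at 10 nM (adjusted p = 0.373) and 0.26 at 100 nM (adjusted p = 0.371). The 100 nM call also failed with DESeq2's Wald test (adjusted p = 0.124), with other filters on low values or TMM over all genes with a count (adjusted p = 0.0586 to 0.108), and without 100 nM library 1 (adjusted p = 0.142) or 2 (adjusted p = 0.184). The 10 nM call failed with DESeq2's Wald test (adjusted p = 0.114), with TMM factors over all genes with a count (adjusted p = 0.0692), without 10 nM library 2 (adjusted p = 0.313) and without either 100 nM library (adjusted p up to 0.0619). Leaving out either 1 nM library took both calls just over the threshold (adjusted p up to 0.0558).

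Pim1 and Pim3 encode serine/threonine kinases of the same family, and their transcripts moved in opposite directions. Pim1 lies on chromosome 17 from 29491045 to 29495459 on the plus strand. It stood at 35.5 and 32.9 RPKM in the control. The libraries with dTAG13 read 38.6 and 42.0 (0.3 nM), 40.5 and 39.7 (1 nM), 36.7 and 40.1 (3 nM), 46.6 and 40.1 (10 nM) and finally 53.6 and 46.2 (100 nM). Every treated library lay above both control libraries, the only one of the 9 genes of which that was so. How many of all genes had this was not counted. Pim1 was higher on the log2 scale by 0.35 at 10 nM (SE 0.099, adjusted p = 0.0153) and 0.55 at 100 nM (SE 0.097, 95% interval 0.35 to 0.75, adjusted p = 0.000128), from 34.2 ± 1.84 to 49.9 ± 5.29 RPKM (SD, n = 2 each). At 0.3, 1 and 3 nM it was 0.24, 0.23 and 0.17, and none of these passed (adjusted p = 0.597, 0.291 and 0.349). The 10 nM call was lost without control library 2 (0.28, adjusted p = 0.163) or 10 nM library 1 (0.23, adjusted p = 0.210).

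Pim3 lies on chromosome 15 from 88862194 to 88865726 on the plus strand. It stood at 38.1 and 33.0 RPKM in the control. Under treatment it held 35.7 and 41.1 (0.3 nM), 38.7 and 37.5 (1 nM), 36.8 and 32.6 (3 nM), 28.0 and 27.0 (10 nM) and finally 28.7 and 28.0 (100 nM). All 4 libraries of 10 and 100 nM lay below all 8 of the lower doses and the control, with no overlap. That split of doses was picked after the values were seen, and its share over all genes was not counted. It fell by 0.37 on the log2 scale at 10 nM (SE 0.094, adjusted p = 0.00665) and by 0.33 at 100 nM (SE 0.094, 95% interval -0.52 to -0.13, adjusted p = 0.0122). The mean went from 35.6 ± 3.60 to 28.4 ± 0.544 RPKM (SD, n = 2 each). Without control library 1 the changes were -0.27 (adjusted p = 0.129) and -0.22 (adjusted p = 0.199), and the 100 nM call was also lost without 100 nM library 1 (adjusted p = 0.0557) or 2 (adjusted p = 0.0903). Without normalization factors neither call held (adjusted p = 0.0622 at 10 nM and 0.0854 at 100 nM).

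**Figure D2:**
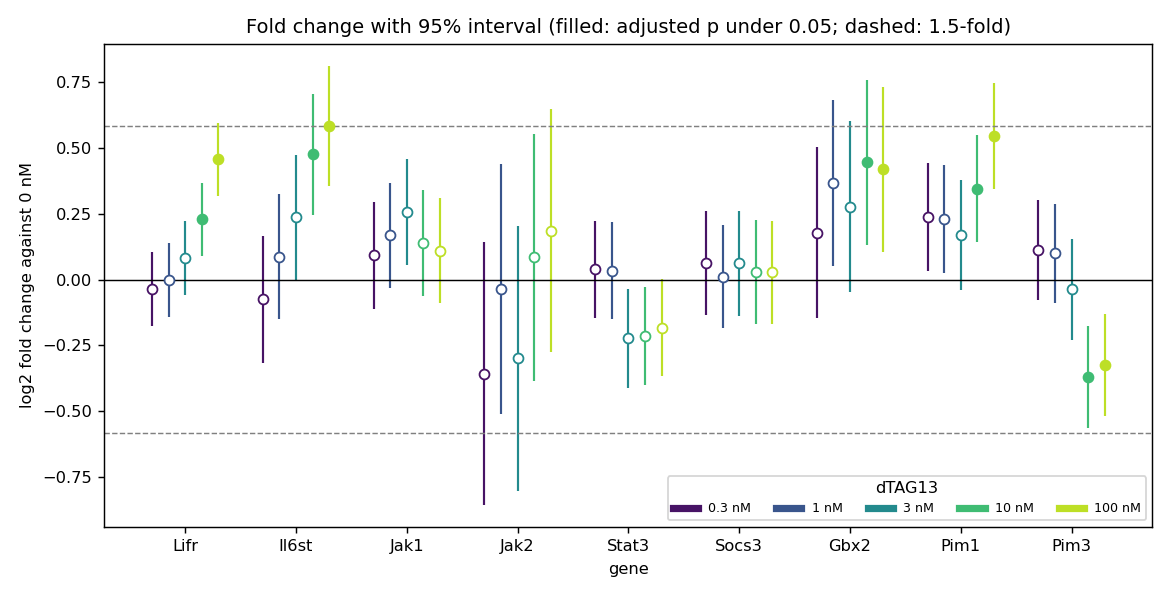
Log2 fold change against 0 nM (vertical axis) of each gene (horizontal axis) at the 5 doses from 0.3 to 100 nM (colours), with the 95% interval as a bar, filled points for an adjusted p under 0.05 and dashed lines at 1.5-fold. Filled points appear at 10 and 100 nM only, above 0 for Lifr, Il6st, Gbx2 and Pim1 and below 0 for Pim3.

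By the dose trend, 6 of the 9 genes passed. Il6st rose by 0.14 log2 per dose step (adjusted p = 1.05e-05), Lifr by 0.09 (adjusted p = 2.48e-05), Pim1 by 0.09 (adjusted p = 0.000827) and Gbx2 by 0.08 (adjusted p = 0.0266). Pim3 fell by 0.09 (adjusted p = 0.0014), and Stat3 fell as given above. Over all genes tested, 13.6% rose and 15.7% fell by this test. In the 8 libraries of 0, 1, 10 and 100 nM alone, the trends of Lifr, Il6st, Pim1 and Pim3 passed (adjusted p = 4.67e-05, 0.000154, 0.000317 and 0.00745), and that of Gbx2 did not (adjusted p = 0.0541). With the run of label numbers as a term in the fit of all 12 libraries, the trends of 6 of the 9 genes passed, Stat3 (adjusted p = 0.0160) and Gbx2 (adjusted p = 0.0408) among them. The trend of Gbx2 was lost without control library 1 (adjusted p = 0.138), 0.3 nM library 2 (adjusted p = 0.0646) or 10 nM library 2 (adjusted p = 0.0539).

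Doses were also tested against each other within a run of label numbers. From 1 to 10 nM, Lifr rose by 0.23 (adjusted p = 0.0391), Il6st rose by 0.39 (adjusted p = 0.0345) and Pim3 fell by 0.47 (adjusted p = 0.00187), and 6.27% of all genes passed (2.55% higher and 3.72% lower). The calls of Lifr and Il6st at this step passed in 4 and 6 of 10 alternatives (adjusted p up to 0.129 and 0.116), and both were lost with DESeq2's Wald test, without the filter on low values, with TMM over all genes with a count and with the pairwise fit, whereas that of Pim3 passed in 10 of 10 alternatives and in 12 of 12 fits with a library left out. Leaving out any 1 library of 0.3, 1, 10 or 100 nM also took Lifr over the threshold (adjusted p = 0.0516 to 0.196), and leaving out either library of 1 or 100 nM or 10 nM library 2 did so for Il6st (adjusted p = 0.0519 to 0.340). From 10 to 100 nM, 0 of the 9 passed edgeR's quasi-likelihood test or DESeq2's Wald test, 2 of the 9 (Lifr and Pim1) had an unadjusted p under 0.05 (11.9% of all genes), and 2.37% of all genes passed. Lifr differed by 0.23 between these doses (95% interval 0.09 to 0.36, adjusted p = 0.0764), and without 3 nM library 1 or library 2 its adjusted p was 0.0426 or 0.0365. Pim1 differed by 0.20 (adjusted p = 0.403) and Pim3 by 0.05 (95% interval -0.15 to 0.24, adjusted p = 0.910). From 0.3 to 3 nM, 0 of the 9 passed either test, and 2 of the 9 had an unadjusted p under 0.05 (18.7% of all genes), Il6st with 0.31 (adjusted p = 0.130) and Stat3 with -0.26 (adjusted p = 0.102). There 5.31% of all genes passed.

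Ratios of genes within a library do not depend on the library's size, and are given as a description, for pairs picked after their values were seen. The ratio of Pim1 to Pim3 RPKM was 0.930 and 0.995 in the control, 1.67 and 1.49 at 10 nM, and 1.87 and 1.65 at 100 nM. Pim1 was thus close to Pim3 in the control libraries and above it in the libraries of 10 and 100 nM. Lifr stood at 0.910 and 0.830 times the level of Stat3 in the control and at 1.28 and 1.43 times at 100 nM. Il6st stood at 0.379 and 0.399 times the level of Stat3 in the control and at 0.641 and 0.686 times at 100 nM. Lifr stood at 2.40 and 2.08 times the level of Il6st in the control, 2.10 and 1.70 times at 10 nM and 2.00 and 2.09 times at 100 nM, with the highest of the 12 values, 2.56, at 0.3 nM.

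**Figure D3:**
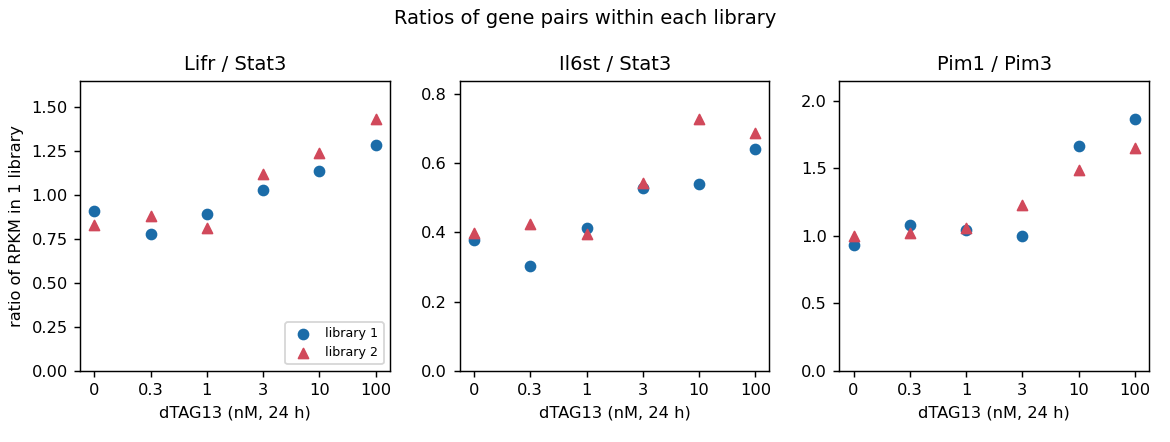
Ratio of 2 genes' RPKM in the same library (vertical axes, from 0) against the dTAG13 concentration (horizontal axes, equal steps per dose) for Lifr to Stat3, Il6st to Stat3 and Pim1 to Pim3, with circles for library 1 and triangles for library 2. In each panel the libraries of 10 and 100 nM lie above those of 0 nM.

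In the control cells the order of levels per length, by mean RPKM, was Pim3, Pim1, Socs3, Stat3, Lifr, Gbx2, Jak1, Il6st and Jak2. Pim3 and Pim1 overlapped between their libraries, and every other neighbouring pair in the order did not. The span was wide, from 35.6 RPKM for Pim3 to 1.99 for Jak2. The receptor subunit Lifr was 2.40- and 2.08-fold above its partner Il6st in the 2 control libraries.

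Set among all genes tested, the log2 fold changes at 100 nM lay within the bulk of the distribution. By percentile, Il6st stood at 92.0, Pim1 at 91.2, Lifr at 88.5 and Gbx2 at 87.0. Jak2 stood at 72.3, Jak1 at 63.8, Socs3 at 53.9, Stat3 at 27.5 and Pim3 at 17.5.

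**Figure D4:**
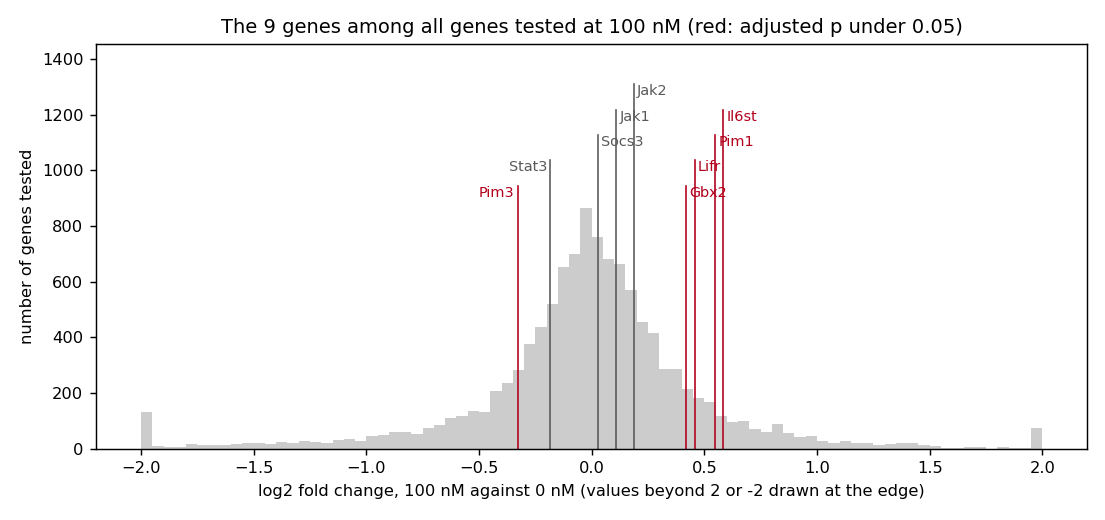
Histogram of the log2 fold change at 100 nM against 0 nM (horizontal axis) of the 11378 genes tested (vertical axis, number of genes; values beyond 2 or -2 are drawn at the edge), with a line for each of the 9 genes, red for an adjusted p under 0.05. The 9 lines fall between -0.33 for Pim3 and 0.58 for Il6st.

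Of 52 further genes of the pathway, 44 were tested, and at 100 nM 7 were higher, 9 lower and 28 did not pass, with a median log2 fold change of 0.07. Over all genes tested 23.4% passed, as above, with a median of 0.00. Without 100 nM library 2 the counts were 5 higher and 5 lower. At 10 nM 5 were higher and 7 lower (17.9% of all genes passed), at 3 nM 5 and 4 (9.4% of all genes) and at 1 nM 2 and 2 (2.29% of all genes). DEGs at 100 nM were 5 higher and 7 lower (11.2% of all genes were DEGs). Stat5a, among those higher, passed the filter on low values only through its treated libraries. Tbx3, Tcl1, Myc and Klf4 are genes that the study itself follows in these libraries, so their inclusion is not independent evidence.

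At 100 nM, where 23.4% of all genes passed, the ligand and receptor genes held no call. Of 8 ligand genes 3 were tested, and Lif itself had 24 to 47 counts and a log2 fold change of 0.20 at 100 nM (adjusted p = 0.645). Of 5 further receptor genes 4 were tested, and Il6ra, the most abundant, had a log2 fold change of 0.17 at 100 nM (adjusted p = 0.510). At 3 nM Il6ra was higher by 0.73 (adjusted p = 0.00438), and at 10 nM its difference was 0.46 (adjusted p = 0.0566). Of the other kinases of the family, Tyk2 had a log2 fold change of 0.09 (adjusted p = 0.548). Jak3, which serves cytokine receptors of lymphoid cells, fell from 7.56 ± 0.664 to 4.05 ± 0.691 RPKM (SD, n = 2 each), which is -0.90 on the log2 scale (adjusted p = 8.24e-05). Its log2 fold change was already -0.57 at 1 nM (adjusted p = 0.0399), -0.98 at 3 nM (adjusted p = 0.000183) and -1.04 at 10 nM (adjusted p = 2.35e-05). Alternatives were not run for Jak3 at these lower doses.

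Of 5 STAT genes tested besides Stat3, Stat5a and Stat5b were higher at 100 nM, against 10.1% of all genes. Stat5a went from 0.736 ± 0.271 to 1.65 ± 0.464 RPKM (SD, n = 2 each; log2 fold change 1.17, adjusted p = 0.0157) and Stat5b from 1.55 ± 0.00615 to 2.37 ± 0.171 (0.61, adjusted p = 0.0448). Both were low, and the 2 genes are close paralogs between which reads can be hard to assign. The call of Stat5a was lost with DESeq2's Wald test (adjusted p = 0.0595) and without control library 2 or 100 nM library 2 (adjusted p up to 0.206). That of Stat5b was lost in 4 of 10 alternatives and without any 1 library of 0, 0.3 or 100 nM (adjusted p up to 0.210). Stat2, the most abundant of the 5, had a log2 fold change of -0.10 (adjusted p = 0.669).

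Of 14 inhibitor genes tested, 2 were higher and 1 lower at 100 nM, where 23.4% of all genes passed in either direction. Socs2, a feedback inhibitor best known from growth hormone and STAT5 signalling, rose from 15.2 ± 0.780 to 24.6 ± 1.59 RPKM (SD, n = 2 each; log2 fold change 0.70, adjusted p = 1.88e-05). Pias2 rose by 0.27 (adjusted p = 0.00406), a call that failed without the filter on low values (adjusted p = 0.0747). Ptpn6, the gene of the phosphatase SHP-1, fell from 10.7 ± 0.323 to 6.34 ± 1.35 RPKM, a log2 fold change of -0.75 (adjusted p = 0.0005). Pias4, the most abundant inhibitor gene, had a log2 fold change of -0.14 (adjusted p = 0.332).

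Of 16 further STAT3 target genes, 3 were higher and 7 lower at 100 nM, where 10.1% of all genes were higher and 13.3% lower. The targets past the test thus went both ways. Pim2, the remaining gene of the Pim family, rose from 3.38 ± 0.740 to 9.15 ± 1.05 RPKM (SD, n = 2 each; log2 fold change 1.43, adjusted p = 1.51e-05), and it was 0.42 at 1 nM (adjusted p = 0.474). Myc, a driver of growth, stood at 24.3 and 23.9 RPKM in the control and at 44.3 and 47.9 at 100 nM, higher by 0.94 on the log2 scale (adjusted p = 1.73e-09), and at 1 nM it was already 0.66 higher (adjusted p = 2.33e-05). Klf4, a naive pluripotency factor, was higher by 0.28 (adjusted p = 0.00163).

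Among the targets that fell, Tcl1, whose product activates AKT signalling, went from 16.1 and 12.9 RPKM in the control to 2.22 and 1.39 at 100 nM, which is -3.00 on the log2 scale (SE 0.234, adjusted p = 2.92e-10). Tbx3, a transcription factor of naive cells, went from 40.2 and 39.0 to 21.7 and 24.7 RPKM (-0.77, adjusted p = 8.86e-09). Tfcp2l1, a naive pluripotency factor and the most abundant target on the list, went from 131 ± 1.41 to 84.0 ± 1.49 RPKM (SD, n = 2 each; -0.64, adjusted p = 1.4e-10). Junb, an AP-1 gene, fell by 0.61 (adjusted p = 0.00672) and Bcl6, a transcriptional repressor, fell by 1.14 from 1.62 and 1.93 RPKM (adjusted p = 0.0297). The call of Junb was lost without control library 1 or 100 nM library 2 (adjusted p up to 0.0911). That of Bcl6 was lost with DESeq2's Wald test (adjusted p = 0.0909), without either control library and without 100 nM library 2 (adjusted p up to 0.373). Sall4 changed by -0.24 (adjusted p = 0.00221) and Pramel7 by -0.43 (adjusted p = 0.0374). Pramel7 had been higher than the control at 1 nM (0.66, adjusted p = 0.0055), 3 nM (0.77, adjusted p = 0.000314) and 10 nM (0.63, adjusted p = 0.00126), and it fell by 1.05 from 10 to 100 nM (adjusted p = 3.65e-05). Both 100 nM calls failed without normalization factors (adjusted p = 0.125 and 0.144), that of Sall4 also without 100 nM library 2 (adjusted p = 0.0588) and that of Pramel7 without any 1 control or 100 nM library (adjusted p up to 0.172).

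**Figure D5:**
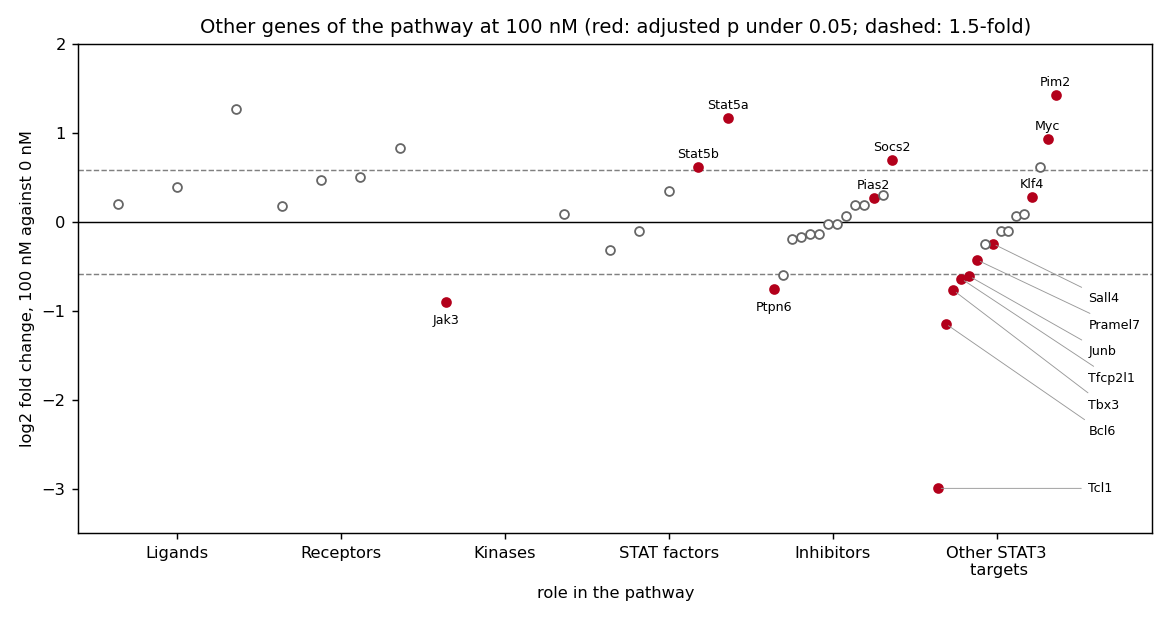
Log2 fold change at 100 nM against 0 nM (vertical axis) of the 44 further pathway genes tested, grouped by role (horizontal axis) and ordered by value within a role, with red points and names for an adjusted p under 0.05 and dashed lines at 1.5-fold. Red points lie on both sides of 0 among the targets, from Tcl1 at -3.00 to Pim2 at 1.43, and none appear among ligands and receptors.

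Markers of other cell types also differed between the control and 100 nM, and their part in the changes above was not tested. The summed level of the 6 ES cell markers was 1846 to 1860 RPKM in the control and 1639 to 1684 at 100 nM. Within that list Dppa5a, Pou5f1 and Esrrb fell (by 0.48, 0.17 and 0.17), Nanog rose by 0.52 (adjusted p = 1.79e-08), and Sox2 and Zfp42 did not pass (0.19 and 0.12). The 5 neural markers summed to 36.5 to 40.1 RPKM in the control and 69.3 to 71.5 at 100 nM, with 5 of 5 detected in each of these libraries. The higher sum came chiefly from Tubb3 and Nes, which rose by 0.87 and 1.45. Sox1 did not pass (0.13, adjusted p = 0.642), and Pax6 and Neurog1, with at most 28 and 12 counts per library, were too low to be tested. The 6 trophoblast markers summed to 12.1 to 13.9 and 17.9 to 20.02 RPKM, with 6 of 6 detected in these libraries. Eomes, the most abundant of them, was higher by 0.33 (adjusted p = 0.0465) and Cdx2 by 3.10, while Gata3 had a log2 fold change of -1.23 (adjusted p = 0.0919), Tfap2a one of 0.04, and Elf5 0 to 2 counts per library. Cdx2 had 4 to 64 counts per library and passed the filter on low values only through its treated libraries. The 7 primitive endoderm markers summed to 1.84 to 2.29 and 2.53 to 2.87 RPKM (1.52 to 1.74 at 10 nM), with 6 or 7 and then 7 of them detected, and Gata6 had 0 to 4 counts. The 7 fibroblast markers summed to 1.31 to 1.34 and 1.79 to 2.23 RPKM (0.637 to 0.725 at 1 nM), with 5 to 7 and then 7 detected, and Dcn and Lum had at most 2 counts. The sums of these last 2 lists did not rise step by step with the dose.

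Across the 12 libraries, the genes whose log2 levels per library size followed Il6st most closely were Mllt6 with a Pearson r of 0.971, 8030462N17Rik with 0.971 and Aff4 with 0.962. Of the 9 genes, Lifr followed Il6st with r of 0.859, and Pim3 ran opposite to Lifr with r of -0.823 and to Il6st with r of -0.820. These values describe the libraries, which share doses and depth.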

How the data were processed

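Total RNA of 12 libraries of mES cells, 2 for each of 6 dTAG13 concentrations, was prepared with a stranded SMART-Seq kit. Per the labels and the paper's methods, the authors trimmed the reads with Trim Galore, aligned them to mm10 with HISAT2 and counted pairs on exons with featureCounts 2.0.1. The deposited values are raw counts per gene symbol with no normalization, from pairs with both ends aligned and uniquely mapped. Strand was not used, so pairs from overlapping genes on opposite strands were not told apart.

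R 4.3.3 was used with edgeR 4.0.16. RPKM was computed from TMM library sizes and the exon lengths given with the counts. The 11378 genes whose mean level reached 1 RPKM were tested, and the 6 conditions were fitted together with edgeR's quasi-likelihood test, since 2 libraries per condition leave few degrees of freedom. Standard errors are the log2 fold change over the root of the F statistic, and 95% intervals use the test's degrees of freedom. P-values were adjusted over all genes tested by the Benjamini-Hochberg method. The dose trend is 1 slope on the rank of the dose, from 0 to 5. The steps were tested on simulated counts.

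Total counts per library were 4663484 to 6375582. Replicate numbers did not pair the libraries: the differences between replicates 1 and 2 correlated with r of -0.099 to 0.084 over the 15 pairs of conditions. Replicate libraries differed by more than sampling noise (chi-square per degree of freedom 2.03 to 18.0), so all were kept as separate samples.

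The 9 genes were all named. Of the 52 further pathway genes, named were the DEGs at 100 nM and the most abundant gene of each role, and the other genes past the test were named after their values were seen. The genes most like Il6st are the 3 of highest Pearson r. The members, lists and tests were chosen with earlier results of these data known. Alternatives covered the test (likelihood ratio, DESeq2 1.42.0), the normalization, the filter, a pairwise fit, a replicate block and each library left out, and TMM factors over all 23204 genes with a count and the alternatives for the further pathway genes were added after the data were seen. Without the filter on low values, the TMM factors were also those over all genes with a count, so both settings share 1 change of normalization. Promoter sequences are RefSeq's.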

Additional observations from a re-analysis of the deposited data

How the results depend on the processing

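Over 1791 refits of the 9 genes' results under another setting or without a library, 1721 kept their side of the threshold, 64 lost a call, 6 gained one and 0 turned a called direction. Most of these refits were of results without a call in the main fit, which had none to lose. Only the calls at 10 nM (5 genes), at 100 nM (5), between 10 and 1 nM (3) and by trend (6) could be lost. Sign changes numbered 73, all in values not called. At 100 nM Lifr, Il6st and Pim1 passed in all 10 alternatives and all 12 fits with a library left out. At 10 nM 5 genes passed, 3 with TMM factors over all genes with a count, 0 when a change over 1.5-fold was also required, and 2 to 5 with a library left out. At 100 nM 5 passed, 0 with that fold-change minimum, and 3 to 5 with a library left out, with the lowest count without control library 1 or either 100 nM library. Between 10 and 1 nM 3 passed, 0 with the fold-change minimum, 1 each with DESeq2's Wald test, without the filter on low values, with TMM over all genes with a count and with the pairwise fit, and 1 to 3 with a library left out. Between 3 and 0.3 nM 0 passed, but 1 (Stat3) did without the filter and with TMM over all genes with a count, which share the same TMM factors. Between 100 and 10 nM 0 passed, and 0 to 1 with a library left out. The counts at 0.3, 1 and 3 nM stayed at 0, and 4 to 6 trends passed over the alternatives. The further pathway genes higher at 100 nM numbered 5 to 7 and those lower 5 to 9 with a library left out, and of 968 such refits 0 turned a called direction. Why calls moved between settings was not tested.

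TMM over all genes with a count moved the median log2 fold change of all genes by -0.08 at 100 nM, and the share of DEGs that were higher between 3 and 0.3 nM from 38.5% to 27.4%. With the replicate block, 4 of the 9 genes passed at 10 nM and 4 at 100 nM, since Gbx2 did not (adjusted p = 0.0520 and 0.0561), and over all genes 2605 passed at 100 nM against 2662 without it. With at least 4663484 counts per library and 2 libraries per condition, the 95% interval of Jak2 at 100 nM spans -0.28 to 0.65.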
